A study of Mus musculus with 15 samples.

Results

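A set of 10 genes that set up and steer the pigment cell lineage was followed through every library of the series. They are the transcription factors Mitf, Sox10, Pax3, Irf4 and Tfap2a, the coactivator Cited1, the receptors Kit, Ednrb and Mc1r, and the ion channel Trpm1. They were listed by symbol, with earlier results of these data known though by no threshold on their values, and all 10 were found among the 46078 genes of the count table. Enough reads for a test were found for 9 of them. The remaining gene, Ednrb, gave 1 read in all 15 libraries.

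The cells were B16-F10, a mouse melanoma line, and the RNA was total RNA. There were 5 groups of 3 libraries. In the compound arm the cells received the vehicle DMSO alone, GSK126 at 2 µM, or DZNep at 2 µM. In the siRNA arm cells received a scrambled control (scr) or an siRNA against Ezh2 (siEzh2). EZH2 is the catalytic subunit of Polycomb repressive complex 2 and methylates histone H3 at lysine 27, GSK126 inhibits its methyltransferase activity, and DZNep is a blocker of S-adenosylhomocysteine hydrolase that acts on methylation reactions more widely. All groups share the 1 tumour line, so the replicates are samples of that line. Treatment times and siRNA sequences were not used here. GSK126 and DZNep were each compared with the same DMSO libraries.

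In the pigment lineage MITF is the central transcription factor: it binds E-box motifs, among them the longer M-box, in the genes that make melanin. SOX10 and PAX3 are known to act on the Mitf promoter, TFAP2A works beside MITF at many pigment genes, and IRF4 acts with MITF at the tyrosinase gene. The receptors feed into the same factor. KIT, the receptor of stem cell factor, signals through the MAP kinase cascade, MC1R, the receptor of melanocortins, signals through cyclic AMP and CREB at a cyclic AMP response element (CRE) of the Mitf promoter, and EDNRB is the receptor of endothelins. CITED1 is a CBP/p300-binding coactivator, and TRPM1, also called melastatin, is a cation channel whose gene is a known MITF target.

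Positions are those of GENCODE M21 on GRCm38, and all 10 genes are annotated as protein-coding. Mitf lies at chr6:97807052-98021349 on the plus strand, Sox10 at chr15:79154908-79165240 on the minus strand and Pax3 at chr1:78101267-78197134 on the minus strand. Irf4, at chr13:30749226-30766976 on the plus strand, and Tfap2a, at chr13:40715302-40738376 on the minus strand, share a chromosome. Kit lies at chr5:75574916-75656722 (plus), Ednrb at chr14:103814625-103844402 (minus) and Mc1r at chr8:123407107-123410744 (plus). Cited1 lies at chrX:102247381-102252181 (minus) and Trpm1 at chr7:64153835-64269775 (plus). Annotated genes on the opposite strand share 17.9% of the exon bases of Mc1r, 14.6% of those of Tfap2a and 0.0814% of those of Trpm1, and no source used here states a strand setting. Reads from those stretches cannot be assigned to one strand, so the values of Mc1r and Tfap2a carry that uncertainty.

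Promoter letters are shown for the 4 genes whose windows hold an M-box, a complete CRE or an E-box. They come from the RefSeq promoter table for GRCm38.p6, which gave 15 windows of 300 bases (250 before a start to 50 after it) for 8 of the 10 genes, not Sox10 and Pax3. Capitals mark the motif, positions count from the start of the transcript, and each stretch is read on the gene's own strand from 5′ to 3′.
Mitf window 3, chr6:97991613-97991752: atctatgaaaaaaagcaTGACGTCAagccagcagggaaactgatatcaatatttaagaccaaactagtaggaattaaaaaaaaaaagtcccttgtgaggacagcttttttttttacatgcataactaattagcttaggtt
Mc1r window 1, chr8:123406952-123407051: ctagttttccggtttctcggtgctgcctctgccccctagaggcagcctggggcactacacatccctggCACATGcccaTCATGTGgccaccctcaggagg
Trpm1 window 1, chr7:64153645-64153744: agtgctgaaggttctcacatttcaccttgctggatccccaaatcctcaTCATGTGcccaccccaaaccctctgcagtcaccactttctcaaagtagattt
Trpm1 window 2, chr7:64185209-64185308: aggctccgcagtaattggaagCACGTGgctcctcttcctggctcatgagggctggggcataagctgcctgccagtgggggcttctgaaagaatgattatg
Cited1 window 2, chrX:102251924-102252013 (minus strand): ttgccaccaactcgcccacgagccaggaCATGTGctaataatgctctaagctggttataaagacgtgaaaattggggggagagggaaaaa

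The Mitf window held the full CRE, TGACGTCA, from -153 to -146, a motif found on either strand in 1.79% of the 32851 RefSeq windows of this length. The Mc1r window held an M-box, TCATGTG, from -52 to -46, and a CATGTG on the minus strand from -62 to -57. Trpm1 held an M-box from -142 to -136 in window 1 and a CACGTG from -229 to -224 in window 2. Its window 2 also held a CATGTG on the minus strand from 37 to 42, outside the stretch printed. The M-box occurs in 3.77% of all windows, CACGTG in 7.15% and CATGTG, which every M-box contains, in 14.2%. Cited1 held a CATGTG from -142 to -137. The other letters searched were the SOX motifs ACAAAG and ACAATG (18.7% and 12.6% of windows), the PAX motif GTCACGC (2.09%), the short CRE TGACG, which the full CRE contains on both strands (20.8%), and the AP-2 motif GCCNNNGGC (16.6%). No SOX or PAX match was found in the 15 windows. Outside the full CRE, the short CRE lay in Ednrb window 1 and Cited1 window 3. AP-2 matches lay in Mitf window 2, Irf4 window 1, Kit windows 1 and 2, Ednrb window 1, Mc1r window 1, Cited1 window 3 and Trpm1 window 1. These matches describe letters in the windows. No binding was measured here, and reads were counted per gene, so the table does not say which start was used.

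Levels are given as CPM, counts relative to library sizes scaled by the trimmed mean of M-values (TMM), as mean ± SD with n = 3. To set one gene against another they were divided by exon length in kilobases. In DMSO, Sox10 had the highest level per kilobase, 314 ± 15.8 CPM per kb, followed by Mitf at 128 ± 7.28. Mc1r at 65.4 ± 4.13 and Tfap2a at 62.6 ± 2.03 overlapped between libraries, so their order was not resolved. Pax3 followed at 54.8 ± 0.944 and Cited1 at 16.1 ± 2.47. The low end held Trpm1 at 4.36 ± 0.314, Kit at 3.74 ± 0.144 and Irf4 at 1.24 ± 0.109 CPM per kb, and each of these neighbours was separate in all libraries. The separation does not cover the length used, so the order of genes holds for that length only. Before division Trpm1, with 14746 exon bases, stood at 64.4 ± 4.63 CPM and Cited1, with 1754, at 28.2 ± 4.33. Ednrb was at 0 in the DMSO libraries.

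**Figure D1:**
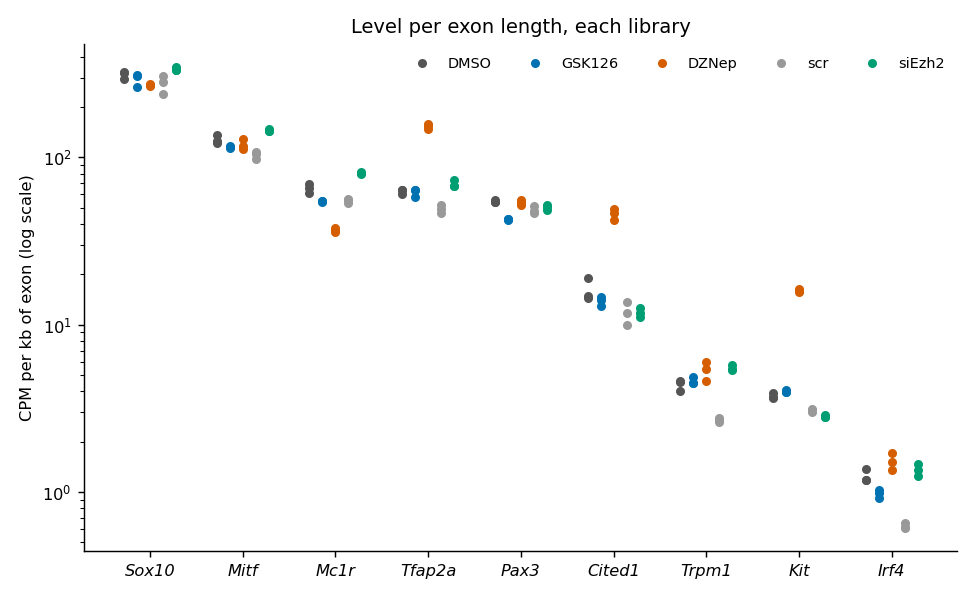
Level per exon length (CPM per kb, log axis) of the 9 detected lineage genes in every library, coloured by group and ordered by the DMSO level. Sox10 and Mitf lie highest in DMSO and Irf4 lowest, and under DZNep Tfap2a (153 CPM per kb) stands above Mitf (119 CPM per kb).

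Total counts per library lay between 33299524 and 64545747, so that 1 read was worth 0.0154 to 0.0306 CPM. Ezh2 itself fell from 219 ± 6.59 CPM in scr to 39.6 ± 1.87 in siEzh2 (log2 -2.47 ± 0.05, adjusted p = 1.22e-17) and from 207 ± 2.66 in DMSO to 155 ± 5.06 in DZNep (log2 -0.41 ± 0.05, adjusted p = 3.67e-07), and was 214 ± 6.81 in GSK126 (adjusted p = 0.569). Melanin genes were abundant in all groups: in DMSO Tyrp1 stood at 9050 ± 103 CPM, Dct at 8770 ± 679, Pmel at 4560 ± 435, Mlana at 1250 ± 91.7, Slc45a2 at 124 ± 6.71 and Tyr at 71.1 ± 7.35. Of the markers of other cells, the summed keratinocyte list stayed at or under 0.0477 CPM, and the blood and endothelial list lay between 2.68 and 4.77 CPM. Cd3e, Itgam and Cdh5 were at 0 in every group. Most of that sum was Cd68, at 2.47 ± 0.214 CPM in DMSO and 3.94 ± 0.655 in DZNep, and Lyz2 was at 0.3 ± 0.0515 in DMSO. Of the 2 genes of that list that were tested, 1 was called higher with DZNep. The 8 fibroblast markers summed to 18.1 to 20 CPM in DMSO, 21.8 to 24.4 in GSK126, 57.5 to 68 in DZNep, 19 to 19.6 in scr and 27 to 30.2 in siEzh2. In every group 3 of the 8 had 3 reads or fewer (Col3a1, Dcn and Thy1, the last at 0), and Postn made up most of the DZNep sum at 45.8 ± 5.44 CPM. The 7 Schwann cell markers, all of which these cells express, summed to 483 to 486 CPM in DMSO, 459 to 474 in GSK126, 369 to 405 in DZNep, 444 to 456 in scr and 533 to 553 in siEzh2. Mitochondrial transcripts took 5.98 to 10.2% of counts. The fibroblast sum was highest in DZNep, and the Schwann cell sum was highest in siEzh2 and lowest in DZNep. The part of any of these lists in the changes below was not tested. In bulk RNA, fewer cells of a kind and less RNA per cell cannot be told apart. The library number of GSK126 replicate 1 places it with the siRNA libraries and away from the rest of the compound arm. Some GSK126 results, though not all, are also given without it.

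Every test is the quasi-likelihood test of edgeR in 1 fit of all 15 libraries, with Benjamini-Hochberg adjustment over 15152 genes, and called genes have an adjusted p under 0.05. Changes are written on the log2 scale ± standard error. With GSK126 against DMSO, 3 of the 9 tested lineage genes fell (Pax3, Irf4 and Mc1r) and 0 rose, where 12.7% of all genes were called, 7.15% higher and 5.54% lower. At an unadjusted p under 0.05, 1 was higher and 4 were lower, and DESeq2 also called 0 higher. The median of the 9 was -0.15, against -0.01 over all genes. With DZNep, 5 rose (Kit, Cited1, Tfap2a, Irf4 and Trpm1) and 2 fell (Mc1r and Sox10). DZNep moved most of the transcriptome, with 62.3% of all genes called, 31.2% higher and 31% lower, and the 7 of 9 called here are to be read against that share. The median of the 9 was 0.29 and that of all genes 0.00.

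With siEzh2 against scr, 6 of 9 rose (Irf4, Trpm1, Mc1r, Tfap2a, Mitf and Sox10) and 0 fell, where 26.1% of all genes were called, 13.2% higher and 12.9% lower. At an unadjusted p under 0.05, Kit was lower as well, and DESeq2 called 0 lower. The median of the 9 was 0.48, against -0.01 over all genes. The choice of control mattered for these genes. In scr against DMSO, 8 of the 9 were lower (all but Sox10) and 0 higher, where 25.9% of all genes were called, 12.2% higher and 13.6% lower, and the median of the 9 was -0.31. By edgeR at an unadjusted p under 0.05 all 9 were lower and 0 higher, and DESeq2 called 8 lower and 0 higher. Delivery of an siRNA, the arm of the study and the place of the libraries cannot be told apart in that comparison. Set against DMSO instead, a choice of control made after seeing the data, siEzh2 had 3 of the 9 higher (Mc1r, Trpm1 and Mitf) and 2 lower (Kit and Cited1), where 14.2% of all genes were called, 6.41% higher and 7.76% lower. In this and every later comparison of siEzh2 with DMSO, knockdown cannot be told apart from siRNA delivery, arm or place of the libraries. Kit and Cited1 were lower than DMSO in scr as well (log2 -0.29 and -0.46). For the named genes below, siEzh2 is therefore set against both controls.

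**Figure D2:**
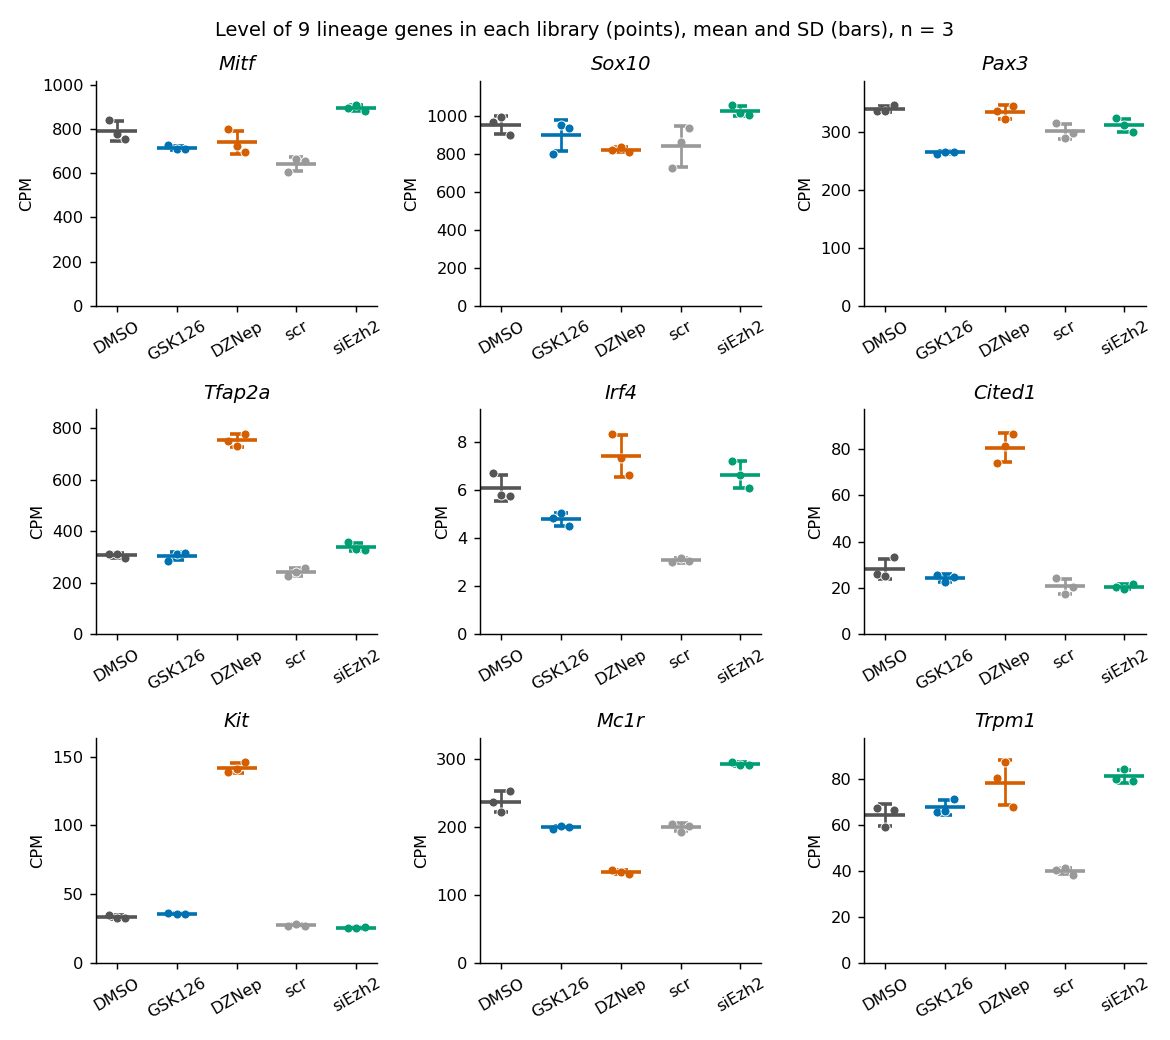
Level of each of 9 lineage genes (CPM, linear axes from 0) in the 15 libraries, with points for libraries and bars for the mean and SD of 3. The DZNep libraries stand far above all others for Tfap2a, Cited1 and Kit, and the scr libraries lie lowest for Irf4 and Trpm1.

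**Figure D3:**
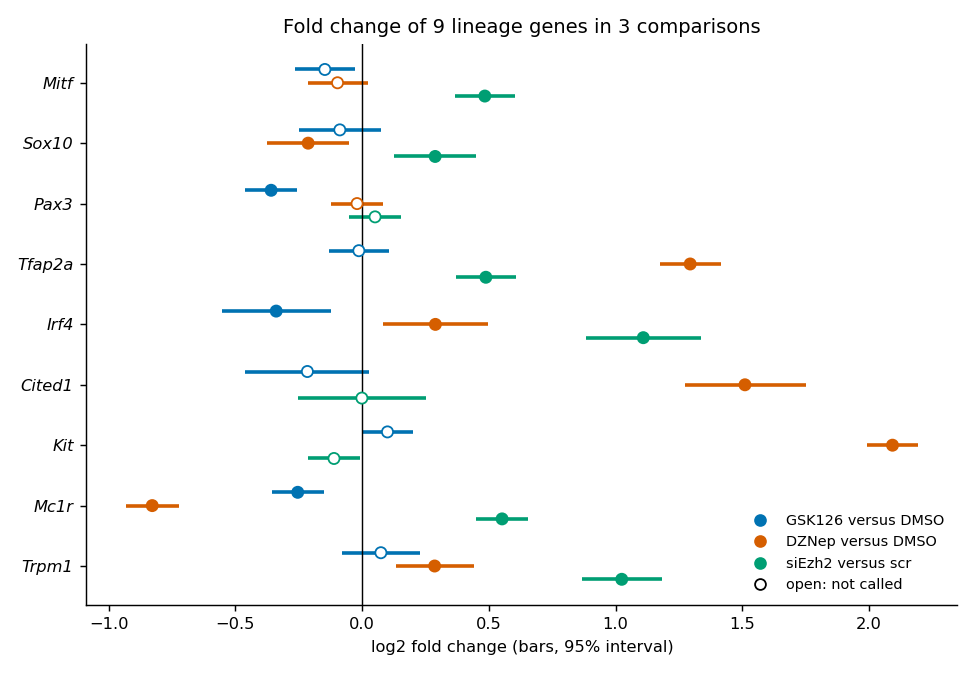
Log2 fold changes of 9 lineage genes with 95% intervals in 3 comparisons, each against its own control, with filled points for called genes. Under DZNep the values run from -0.83 for Mc1r to 2.09 for Kit, while those under GSK126 lie between -0.36 and 0.10.

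Mitf, the central factor, stayed within a narrow range. Its level was 842, 779 and 754 CPM in the DMSO libraries, 726, 710 and 708 in GSK126, and 798, 725 and 697 in DZNep. In the siRNA arm it was 605, 663 and 654 CPM in scr and 895, 908 and 883 in siEzh2. The siEzh2 libraries were the highest of all 15 and the scr libraries the lowest. Mitf rose with siEzh2 against scr by 0.48 ± 0.06 (1.4-fold, adjusted p = 2.42e-06), and by 0.18 ± 0.06 against DMSO (1.13-fold, adjusted p = 0.0412). The scr libraries were 0.31 below DMSO (log2 -0.31 ± 0.06, adjusted p = 0.000451). All 3 GSK126 libraries lay under all 3 DMSO libraries, but the difference of -0.15 (95% interval -0.27 to -0.03) was not called (adjusted p = 0.0948). In DZNep the values overlapped those of DMSO (log2 -0.10, 95% interval -0.22 to 0.02, adjusted p = 0.148), and without DZNep replicate 1 the difference was called at -0.15 (adjusted p = 0.0308).

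Sox10, the neural crest factor upstream of Mitf, was also near constant but noisier. In DMSO it stood at 972, 995 and 903 CPM, in GSK126 at 804, 955 and 941, and in DZNep at 824, 837 and 815. The scr libraries gave 726, 865 and 939 CPM and the siEzh2 libraries 1060, 1020 and 1010. The DZNep libraries agreed closely with each other and lay under all DMSO libraries, while the scr libraries were spread over a range wider than that of any other group. Sox10 fell with DZNep by 0.21 on the log2 scale (SE 0.08, adjusted p = 0.0222), but leaving out 1 library ended the call for DMSO replicates 1 (adjusted p = 0.0574) and 2 (0.0801) and for DZNep replicates 1 (0.0521) and 3 (0.0543). It rose with siEzh2 against scr by 0.29 ± 0.08 (adjusted p = 0.00883), but against DMSO the difference was 0.11 ± 0.08 (adjusted p = 0.392). With GSK126 the difference was -0.09 (95% interval -0.25 to 0.07, adjusted p = 0.501). In scr against DMSO it was -0.18 ± 0.08 (adjusted p = 0.0923), and it was called without scr replicate 3 (-0.27, adjusted p = 0.0212) and with no count filter (-0.19, adjusted p = 0.0104).

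Pax3, the paired-box partner of Sox10 at the Mitf promoter, fell with GSK126 in every library. It stood at 336, 336 and 346 CPM in DMSO and at 261, 266 and 266 in GSK126, with no overlap. The DZNep libraries gave 336, 322 and 345 CPM, the scr libraries 315, 289 and 298, and the siEzh2 libraries 323, 311 and 300. The GSK126 libraries were the lowest of the 15. Pax3 fell with GSK126 by 0.36 on the log2 scale (SE 0.05, 1.28-fold lower, adjusted p = 4.04e-05). The difference with DZNep was -0.02 (95% interval -0.12 to 0.08, adjusted p = 0.738), and with siEzh2 it was 0.05 against scr (95% interval -0.05 to 0.15, adjusted p = 0.482) and -0.12 against DMSO (adjusted p = 0.0967). In scr against DMSO Pax3 was lower by 0.17 (log2 -0.17 ± 0.05, adjusted p = 0.0112). That call was lost without scr replicate 2 (adjusted p = 0.0632), with library totals in place of TMM (0.0647) and in a fit of those groups alone (0.0558).

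Irf4, an interferon regulatory factor with a role in pigmentation, was expressed at a few CPM and had its lowest level in scr. It stood at 6.69, 5.8 and 5.74 CPM in DMSO, 4.83, 5.04 and 4.5 in GSK126, and 8.35, 7.34 and 6.61 in DZNep. In scr it was at 2.99, 3.18 and 3.04 CPM and in siEzh2 at 7.22, 6.61 and 6.1. The scr libraries thus lay below every other library, and the siEzh2 and DMSO libraries overlapped. Irf4 rose with siEzh2 against scr by 1.11 ± 0.11 (2.16-fold, adjusted p = 2.1e-07), but the difference against DMSO was 0.13 ± 0.10 (adjusted p = 0.432). In scr against DMSO it was lower by 0.98 (log2 -0.98 ± 0.11, adjusted p = 1.14e-06). With GSK126 it fell by 0.34 on the log2 scale (SE 0.10, adjusted p = 0.0353). Leaving out 1 library ended that call for DMSO replicate 1 (adjusted p = 0.102) and for GSK126 replicates 1 (0.0896), 2 (0.0588) and 3 (0.136), as did a fit of those groups alone (0.0779). With DZNep it rose by 0.29 ± 0.10 (adjusted p = 0.0159), with libraries that overlapped those of DMSO, and the call ended on leaving out DMSO replicates 2 (adjusted p = 0.0545) or 3 (0.0577), or DZNep replicate 1 (0.105).

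Tfap2a, the AP-2α factor that works beside MITF, rose in all libraries under DZNep. It went from 313, 312 and 295 CPM in DMSO to 750, 728 and 778 in DZNep, while GSK126 gave 286, 311 and 315. The scr libraries held 227, 241 and 256 CPM and the siEzh2 libraries 357, 329 and 328. The DZNep libraries were all above every other library and the scr libraries all below. The rise with DZNep was 1.29 ± 0.06 (2.45-fold, adjusted p = 2.11e-13). With GSK126 the difference was -0.01 (95% interval -0.13 to 0.11, adjusted p = 0.913). Tfap2a rose with siEzh2 against scr by 0.49 ± 0.06 (1.4-fold, adjusted p = 2.23e-06), was lower in scr than in DMSO by 0.35 (log2 -0.35 ± 0.06, adjusted p = 0.000128), and differed between siEzh2 and DMSO by 0.14 ± 0.06 (adjusted p = 0.107).

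Cited1, the coactivator, rose under DZNep alone among the treatments tested against their own controls, with the difference from each of the others called as well (given below for GSK126 and siEzh2). It stood at 26.2, 25.3 and 33.2 CPM in DMSO, 25.8, 22.6 and 24.8 in GSK126, and 74, 81.3 and 86.7 in DZNep. The scr libraries gave 24.1, 17.4 and 20.5 CPM and the siEzh2 libraries 20.6, 19.4 and 21.9. The DZNep libraries stood clear of all others, and scr and siEzh2 overlapped. Cited1 rose with DZNep by 1.51 ± 0.11 (2.85-fold, adjusted p = 9.77e-09). With siEzh2 against scr the difference was -0.00 (95% interval -0.25 to 0.25, adjusted p = 0.999). Against DMSO, scr was lower by 0.46 (log2 -0.46 ± 0.12, adjusted p = 0.00853), and siEzh2 was lower by the same 0.46 (log2 -0.46 ± 0.12, adjusted p = 0.0166). With GSK126 the difference was -0.22 (95% interval -0.46 to 0.03, adjusted p = 0.241), and it was called with no count filter (-0.22, adjusted p = 0.0221).

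Among the receptors, Kit had the largest change of the lineage genes. The receptor of stem cell factor stood at 34.8, 32.7 and 32.4 CPM in DMSO and at 139, 141 and 146 in DZNep. The GSK126 libraries gave 36.2, 35.3 and 35.5 CPM, the scr libraries 27, 28 and 26.9, and the siEzh2 libraries 25.1, 25 and 25.8. The DZNep libraries stood far above all others, and the siRNA arm lay below the compound arm in all libraries. The rise with DZNep was 2.09 ± 0.05 (4.26-fold, adjusted p = 9.55e-18). All 3 GSK126 libraries lay above all 3 DMSO libraries, but the difference of 0.10 (95% interval 0.00 to 0.20) was not called (adjusted p = 0.181). Likewise the siEzh2 libraries all lay below the scr libraries with a difference of -0.11 (95% interval -0.21 to -0.01) that was not called (adjusted p = 0.108). Against DMSO, Kit was lower in scr by 0.29 (log2 -0.29 ± 0.05, adjusted p = 0.000171) and lower in siEzh2 by 0.40 (log2 -0.40 ± 0.05, adjusted p = 1.62e-05).

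Mc1r, the melanocortin receptor, moved against Kit under DZNep. It stood at 237, 223 and 253 CPM in DMSO, 198, 201 and 200 in GSK126, and 137, 134 and 131 in DZNep. The scr libraries gave 204, 193 and 202 CPM and the siEzh2 libraries 296, 291 and 292. The siEzh2 libraries were the highest and the DZNep libraries the lowest of the 15, with no overlap with any other group. Mc1r fell with DZNep by 0.83 on the log2 scale (SE 0.05, 1.78-fold lower, adjusted p = 2.02e-11) and with GSK126 by 0.25 (SE 0.05, 1.19-fold lower, adjusted p = 0.00157). It rose with siEzh2 against scr by 0.55 ± 0.05 (1.47-fold, adjusted p = 5.53e-08) and against DMSO by 0.30 ± 0.05 (1.23-fold, adjusted p = 0.000371). It was lower in scr than in DMSO by 0.25 (log2 -0.25 ± 0.05, adjusted p = 0.000672).

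Ednrb, the endothelin receptor, was not detected beyond a single read, in DZNep replicate 1. In the other libraries it had 0 reads, which at 3 reads a library allows a level of up to 0.0462 to 0.0917 CPM, a limit that covers counting error only. It did not pass the filter on low counts and was not tested.

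Trpm1, the melastatin channel, stood at 67.6, 59.1 and 66.5 CPM in DMSO, 65.9, 66 and 71.4 in GSK126, and 80.4, 87.5 and 67.8 in DZNep. The scr libraries gave 40.4, 41.1 and 38.4 CPM and the siEzh2 libraries 79.9, 84.6 and 79.2. The scr libraries were the lowest of the 15, and the siEzh2 libraries lay above all DMSO libraries. Trpm1 rose with siEzh2 against scr by 1.02 ± 0.08 (2.03-fold, adjusted p = 4.6e-09) and against DMSO by 0.34 ± 0.07 (1.26-fold, adjusted p = 0.00464). It was lower in scr than in DMSO by 0.69 (log2 -0.69 ± 0.08, adjusted p = 1.22e-06). With DZNep it rose by 0.29 ± 0.07 (adjusted p = 0.00225), and with GSK126 the difference was 0.07 (95% interval -0.08 to 0.23, adjusted p = 0.563).

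**Figure D4:**
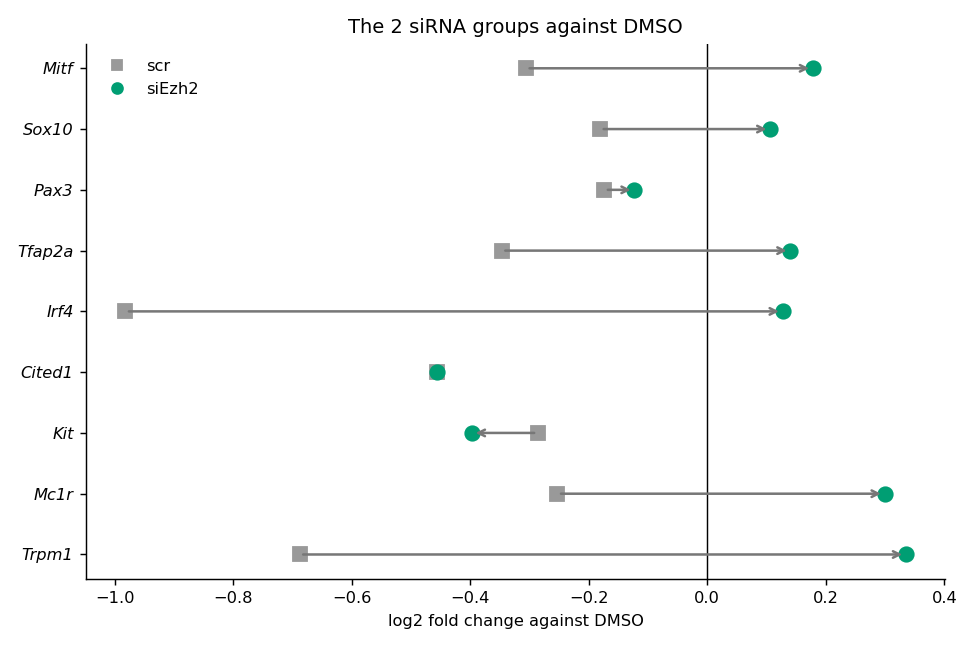
Log2 fold change against DMSO of the scr group (squares) and the siEzh2 group (circles) for 9 lineage genes, with an arrow from scr to siEzh2. All 9 squares lie below 0, from -0.17 for Pax3 to -0.98 for Irf4, while the circles run from -0.46 for Cited1 to 0.34 for Trpm1.

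The difference between knockdown and enzyme inhibition was tested directly, as the siEzh2 effect against scr less the GSK126 effect against DMSO. It was called for 8 of 9 genes, 7 with a positive difference and 1 (Kit) with a negative one, where 20.7% of all genes were called, 10.1% higher and 10.5% lower. The difference was 1.45 ± 0.15 for Irf4 (adjusted p = 6.56e-07), 0.95 ± 0.10 for Trpm1 (adjusted p = 1.82e-06) and 0.81 ± 0.07 for Mc1r (adjusted p = 6.14e-08). Mitf followed at 0.63 ± 0.08 (adjusted p = 9.29e-06). For Kit it was -0.21 ± 0.07 (adjusted p = 0.0337), a call that ended with no count filter (adjusted p = 0.159) and on leaving out any of 9 single libraries of the 12 (between 0.0547 and 0.0864). Mc1r fell with the compound and rose with the siRNA, against scr and against DMSO. Irf4 fell with the compound, a call lost on leaving out any GSK126 library. It rose with the siRNA against scr but was not called against DMSO (0.13, adjusted p = 0.432). With each agent set against its own control, Mitf, Sox10, Tfap2a and Trpm1 were called with the siRNA alone, and Pax3 with the compound alone. For Cited1 the difference was 0.22 (95% interval -0.14 to 0.57, adjusted p = 0.412). Both effects enter each value, so the low scr libraries enter too. When siEzh2 was also set against DMSO, the difference was 0.47 for Irf4 (adjusted p = 0.00307), 0.26 for Trpm1 (0.016), 0.55 for Mc1r (1.22e-07), 0.33 for Mitf (0.000337), 0.24 for Pax3 (0.00152) and -0.50 for Kit (4.6e-07). The calls of Sox10 (0.19, adjusted p = 0.0842) and Tfap2a (0.15, adjusted p = 0.0628) were lost.

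The DZNep effect less the siEzh2 effect was called for 8 of 9 genes, where 51.1% of all genes were called, 25.3% higher and 25.8% lower. It was positive for Kit (2.2 ± 0.07, adjusted p = 1.1e-14), Cited1 (1.51 ± 0.16, adjusted p = 1.54e-06) and Tfap2a (0.81 ± 0.08, adjusted p = 8.54e-08). It was negative for 5, among them Mc1r (-1.38 ± 0.07, adjusted p = 6.48e-12), Irf4 (-0.82 ± 0.15, adjusted p = 0.00011) and Mitf (-0.58 ± 0.08, adjusted p = 5.77e-06). When siEzh2 was set against DMSO, the calls of Irf4 (0.16, adjusted p = 0.167) and Trpm1 (-0.05, adjusted p = 0.577) were lost. The differences that way were -0.28 for Mitf (adjusted p = 0.000294), -0.32 for Sox10 (0.00134), -1.13 for Mc1r (1.99e-13), 1.15 for Tfap2a (1.11e-12), 1.97 for Cited1 (6.04e-10) and 2.49 for Kit (3.47e-18).

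DZNep and GSK126 were also compared directly at the same 2 µM. Of the 9 genes 7 differed, 6 higher in DZNep and 1 lower, where 64.6% of all genes were called, 32.9% higher and 31.7% lower. Kit was 3.98-fold higher in DZNep (log2 1.99 ± 0.05, adjusted p = 2.7e-17), Cited1 3.31-fold (1.73 ± 0.11, adjusted p = 2.14e-09) and Tfap2a 2.47-fold (1.31 ± 0.06, adjusted p = 1.4e-13). Irf4 (0.63 ± 0.10, adjusted p = 2.26e-05) and Pax3 (0.34 ± 0.05, adjusted p = 4.18e-06) were higher as well, and Mc1r was 1.49-fold lower (log2 -0.57 ± 0.05, adjusted p = 3.85e-09). Trpm1 was higher by 0.21 ± 0.07 (adjusted p = 0.0168), a call that was lost without GSK126 replicate 1 (adjusted p = 0.0654), GSK126 replicate 2 (0.0604), DZNep replicate 1 (0.0526) or DZNep replicate 2 (0.165). Mitf (0.05, 95% interval -0.07 to 0.17, adjusted p = 0.448) and Sox10 (-0.13, 95% interval -0.29 to 0.04, adjusted p = 0.163) were not called, though Sox10 was called without GSK126 replicate 1 (-0.21, adjusted p = 0.0263).

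The ligands and partners of the 3 receptors gave few reads. Of 16 listed genes 15 were in the table and 6 could be tested, and the endothelins Edn1 and Edn2 had 0 reads while Edn3 had 1. With GSK126, 0 of the 6 were called in either direction (1 higher and 0 lower at an unadjusted p under 0.05 in edgeR, and 0 by DESeq2). Of all genes 12.7% were called in that comparison. Without GSK126 replicate 1, 0 of the 6 were called as well. Kitl, which encodes stem cell factor, the ligand of KIT, rose with DZNep by 2.39 ± 0.16 (5.24-fold, adjusted p = 7.78e-11), from 1.39 ± 0.235 CPM to 7.21 ± 0.489. Ece2, an endothelin-converting enzyme, rose with it by 1.02 ± 0.12 (adjusted p = 5.76e-07), and Ece1, its relative, fell by 0.42 on the log2 scale (SE 0.07, adjusted p = 2.15e-05). With siEzh2 against scr Ece1 fell by 0.33 (SE 0.07, adjusted p = 0.0011) and Atrn, which encodes attractin, an accessory receptor of agouti protein, rose by 0.21 ± 0.06 (adjusted p = 0.0209). Neither was called against DMSO (Ece1 -0.18, adjusted p = 0.0863, and Atrn 0.14, adjusted p = 0.144). Kitl was at 1.54 ± 0.321 CPM in GSK126 (adjusted p = 0.628) and 1.23 ± 0.0636 in siEzh2 (adjusted p = 0.883 against scr).

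Between the receptors and MITF lie adenylate cyclases, protein kinase A, CREB and the MAP kinase cascade, of which 31 genes could be tested. With GSK126, 1 rose and 2 fell, and the counts were the same without GSK126 replicate 1. Dusp6, a phosphatase that acts on ERK, rose by 0.86 ± 0.07 (adjusted p = 3.68e-08), Dusp4, of the same family, fell by 0.64 on the log2 scale (SE 0.06, adjusted p = 3.93e-07), and Adcy7, an adenylate cyclase, fell by 0.21 (SE 0.05, adjusted p = 0.0111). With DZNep, 10 rose and 10 fell, near the 62.3% of all genes called. Dusp6 rose by 1.44 ± 0.07 (adjusted p = 5.77e-13), the cyclic AMP phosphodiesterase gene Pde4b fell by 1.58 (SE 0.10, adjusted p = 4.87e-11), and Adcy7 fell by 0.74 (SE 0.05, adjusted p = 2.38e-10). With siEzh2 against scr, 3 rose and 3 fell, among them Adcy7 (0.45 ± 0.05, adjusted p = 1.55e-06), the adaptor gene Shc1 (-0.51 ± 0.05, adjusted p = 8.39e-08) and the kinase gene Sik1, an inhibitor of CREB coactivators (-0.73 ± 0.12, adjusted p = 9.43e-05). Against DMSO the siEzh2 libraries had 4 higher and 2 lower, with Adcy7 at 0.44 (adjusted p = 7.4e-06), Shc1 at -0.26 (0.000895) and Sik1 at -0.24 (0.206). The median log2 change over the 31 was 0.05 with GSK126, -0.05 with DZNep and 0.03 with siEzh2. Of all genes, 12.7% were called with GSK126, 26.1% for siEzh2 against scr and 14.2% for siEzh2 against DMSO.

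Besides the lineage genes, 20 genes reported to act on Mitf were tested. With GSK126, 2 rose and 0 fell (2 lower at an unadjusted p under 0.05 in edgeR, and 3 higher and 0 lower by DESeq2). These were the chromatin remodeller gene Chd7 (0.53 ± 0.08, adjusted p = 0.00018) and Hif1a, the hypoxia factor (0.21 ± 0.07, adjusted p = 0.0436), and without GSK126 replicate 1 the count was 1. With DZNep, 6 rose and 9 fell, where 62.3% of all genes were called. Sox9, a relative of Sox10, rose by 1.69 ± 0.06 (3.23-fold, adjusted p = 5.26e-15), while Chd7 fell by 1.06 (SE 0.09, adjusted p = 3.28e-09) and Atf4, the stress-response factor, fell by 0.95 (SE 0.07, adjusted p = 1.82e-10). In siEzh2 against scr 6 rose and 3 fell. Sox9 rose by 0.69 ± 0.06 (adjusted p = 5.1e-08) and Tcf4, which encodes a basic helix-loop-helix factor, by 0.30 ± 0.05 (adjusted p = 5.77e-05), and Rbpj, the DNA-binding factor of Notch signalling, fell by 0.27 (SE 0.05, adjusted p = 0.000452). For siEzh2 against DMSO the counts were 2 higher and 3 lower, with Sox9 at 0.09 (adjusted p = 0.342), Tcf4 at -0.07 (0.34) and Rbpj at -0.17 (0.0343). The shares of all genes called were 12.7% with GSK126, 26.1% for siEzh2 against scr and 14.2% against DMSO.

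Among 31 paralogs of the lineage genes 17 were tested. In siEzh2 against scr 8 rose and 0 fell (1 lower at an unadjusted p under 0.05 in edgeR, and 0 lower by DESeq2), led by Sox9, Pdgfra, a receptor tyrosine kinase of the KIT family (0.95 ± 0.13, adjusted p = 1.43e-05), and Trpm3, a relative of Trpm1 (0.82 ± 0.14, adjusted p = 0.000231). These 8 stand beside 13.2% of all genes called higher. For siEzh2 against DMSO 2 were higher and 2 lower, where 14.2% of all genes were called, with Trpm3 at 0.47 (adjusted p = 0.0277) and Pdgfra at -0.69 (0.000398). Pdgfra was at 2.65 ± 0.331 CPM in scr, 5.11 ± 0.217 in siEzh2 and 8.26 ± 0.576 in DMSO. With DZNep 7 rose and 3 fell, near the 62.3% called over all genes, among them Sox9 and Tfeb, a relative of Mitf (0.91 ± 0.11, adjusted p = 4.9e-07). With GSK126 0 rose (also 0 at an unadjusted p under 0.05 in edgeR, and 0 by DESeq2) and 1 fell, where 12.7% of all genes were called. The gene that fell was Tfeb (-0.40 ± 0.11, adjusted p = 0.0242), and without GSK126 replicate 1 none of the 17 was called.

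The pigment genes and other targets of MITF and SOX10 form the output of the lineage factors, and 19 of 20 listed were tested. With GSK126, 12 fell and 2 rose, where 5.54% of all genes fell and 7.15% rose, with a median of -0.28 against -0.01 over all genes. Pmel, the structural protein gene of the melanosome, fell by 0.55 on the log2 scale (SE 0.06, adjusted p = 5.91e-06), Tspan10, a tetraspanin gene, by 0.52 (SE 0.06, adjusted p = 8.06e-06) and Cdk2, a cell cycle kinase gene under MITF control, by 0.45 (SE 0.05, adjusted p = 7.82e-07). Cdk2 and Pmel overlap on opposite strands, so their reads may be shared. Without GSK126 replicate 1, 12 fell and 1 rose. With DZNep, 9 rose and 4 fell, close to the 62.3% of all genes called, with a median of 0.08. Met, the hepatocyte growth factor receptor gene, rose by 1.05 ± 0.05 (adjusted p = 5.14e-13), Bcl2, the survival gene, fell by 1.28 (SE 0.08, adjusted p = 3.01e-11) and Dct, dopachrome tautomerase, fell by 0.82 (SE 0.07, adjusted p = 5.63e-09).

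In the siRNA arm 14 of the 19 rose with siEzh2 and 0 fell (0 at an unadjusted p under 0.05 in edgeR, and 0 by DESeq2), with a median of 0.37, where 13.2% of all genes rose. Oca2, the melanosomal membrane protein gene, rose by 1.04 ± 0.07 (2.05-fold, adjusted p = 1.6e-09), Met by 0.93 ± 0.05 (adjusted p = 3.53e-11) and Ppargc1a, which encodes the mitochondrial coactivator PGC-1α, by 0.79 ± 0.08 (adjusted p = 1.78e-07). Against DMSO the siEzh2 libraries had 6 of the 19 higher and 3 lower, where 6.41% of all genes were higher and 7.76% lower. The scr libraries themselves had 2 higher and 12 lower than DMSO, where 12.2% of all genes were higher and 13.6% lower. Oca2 stood at 0.57 (adjusted p = 1.62e-05), Met at 0.82 (1.7e-09) and Ppargc1a at 0.87 (2.41e-07) in siEzh2 against DMSO. The siEzh2 effect less the GSK126 effect was called positive for 15 of the 19, where 10.1% of all genes were.

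**Figure D5:**
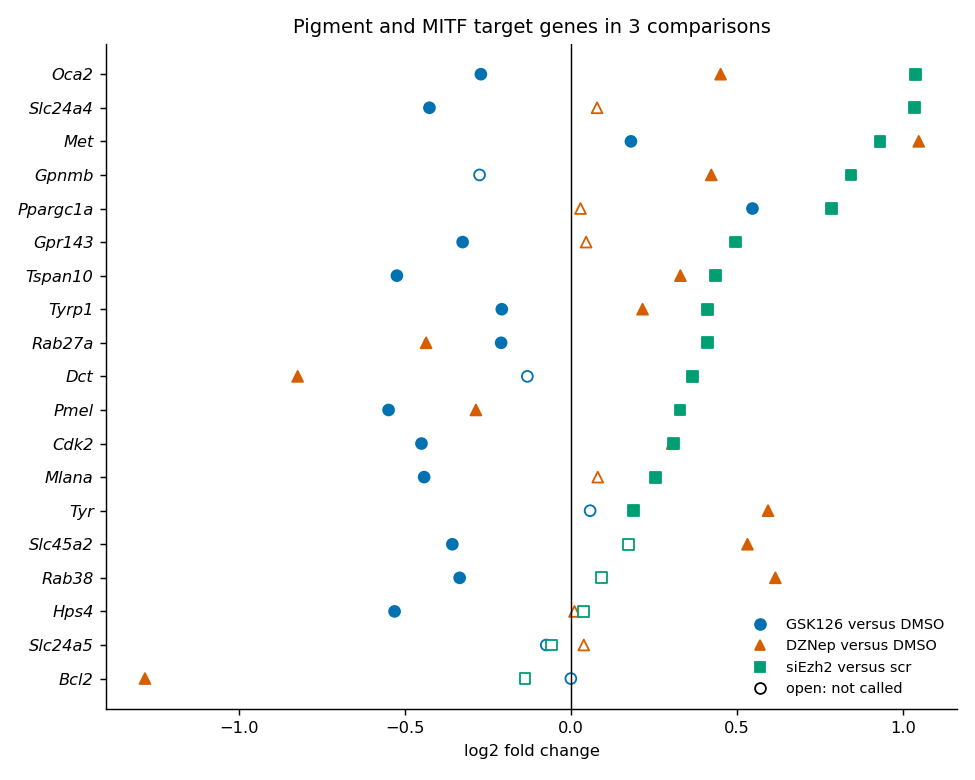
Log2 fold change of 19 pigment genes and MITF targets in 3 comparisons, each against its own control, with filled symbols for called genes. The siEzh2 squares lie above 0 for all but Slc24a5 and Bcl2, while most GSK126 circles lie below 0, from -0.55 for Pmel to 0.55 for Ppargc1a.

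For the 6 lineage genes whose group means spanned at least 0.5 on the log2 scale, the genes with the most similar profile over the 15 libraries were sought among 10602 genes, by the root mean square difference of mean-centred log2 CPM. Fgf1 was nearest to Irf4, at a difference of 0.105, Susd1 to Tfap2a (0.094), Ddias to Kit (0.12), Pde11a to Mc1r (0.098), Fam83d to Cited1 (0.188) and Jun to Trpm1 (0.114). The next in line were Pitpnc1 and Prickle1 for Irf4, Lgmn and Bace1 for Tfap2a, Phlda3 and Btg2 for Kit, Adcy7 and Naalad2 for Mc1r, Phlda3 and Gtse1 for Cited1, and Elovl7 and L1cam for Trpm1. Phlda3 was near both Kit and Cited1, and its log2 changes were 0.01 with GSK126, 2.03 with DZNep and 0.06 with siEzh2. Adcy7, nearest but one to Mc1r, also belongs to the list of signalling genes above. The group means of Mitf, Sox10 and Pax3 spanned 0.49, 0.32 and 0.36, too little for such a search.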

How the data were processed

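The authors deposited whole-number read counts per gene for 15 libraries, not normalized. STAR, GRCm38 and featureCounts are named, per the submitters' processing notes. No source used here gives their versions, the annotation or the strand setting. GENCODE M21 matched 45229 of 46078 gene identifiers, and the rest held 0.0588% of the counts. Columns were assigned by the names in the labels. Replicates differed by more than sampling noise (chi-square per degree of freedom 5.77 to 37.8), so each library was counted. The labels do not tie replicates to separate cultures, and p-values then reflect no more than the spread among these libraries, possibly technical.

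Counts were fitted with edgeR 4.0.16 in R 4.3.3 (TMM, low-count filter, robust quasi-likelihood, 1 term per group, no covariate), and 15152 genes were tested. Libraries of a group varied by 6.4% (common dispersion 0.00409). The procedure was tested on simulated data. Alternatives were DESeq2 1.42.0, library totals, no filter, the compared groups alone, a replicate block, leaving out each library, and DMSO as the control of siEzh2, the last added after seeing the data. The lineage genes and all gene lists were chosen with earlier results of these data known. Besides the lineage genes, the text names from each list of other pathway genes the 3 with the smallest p in each of the 3 main comparisons, markers of other cells, and the 3 most similar genes per lineage gene (mean of at least 2 CPM, prior count of 2); other genes were named after their values were seen. A gene that this rule selects is not reported here.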

Additional observations from a re-analysis of the deposited data

Results flagged for a closer look

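For 8 of the 9 tested lineage genes the siEzh2 effect against scr differed from the GSK126 effect against DMSO by a test of the difference itself (edgeR, adjusted over all genes). Of all genes 20.7% were called in that test. On the log2 scale the siEzh2 effect less the GSK126 effect was 0.631 for Mitf (adjusted p = 9.29e-06), 0.375 for Sox10 (adjusted p = 0.0183), 0.41 for Pax3 (adjusted p = 0.000184) and 1.449 for Irf4 (adjusted p = 6.56e-07). It was 0.501 for Tfap2a (adjusted p = 0.000124), 0.806 for Mc1r (adjusted p = 6.14e-08) and 0.95 for Trpm1 (adjusted p = 1.82e-06). For Kit it was -0.211 (adjusted p = 0.0337). Against scr, that last call was lost with no count filter (adjusted p = 0.159), in a fit of the compared groups alone (0.056), and on leaving out DMSO replicate 2 or 3, any GSK126 replicate, scr replicate 1 or 2, or siEzh2 replicate 1 or 2 (between 0.0547 and 0.0864). With DMSO as the control of siEzh2 the Sox10 (0.194, adjusted p = 0.0842) and Tfap2a (0.153, adjusted p = 0.0628) calls were lost, and the values were 0.325 for Mitf, 0.236 for Pax3, 0.466 for Irf4, 0.553 for Mc1r, 0.261 for Trpm1 and -0.497 for Kit (adjusted p between 1.22e-07 and 0.016). Knockdown and compound were each measured in their own arm, so the arm and the agent cannot be told apart.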

How the results depend on the processing

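The count of lineage genes called, whichever they were and in either direction, stayed within 1.5 times its value in all 7 comparisons under every alternative run. The genes behind a count could change. With DMSO as the control of siEzh2, the calls of Irf4, Tfap2a and Sox10 were lost for siEzh2, and Kit and Cited1 were called lower. With 1 library left out the count ranged from 2 to 3 for GSK126, 5 to 7 for DZNep, 6 to 6 for siEzh2 against scr, 7 to 9 for scr against DMSO, 7 to 8 for the siEzh2 effect less the GSK126 effect, 8 to 8 for the DZNep effect less the siEzh2 effect, and 6 to 7 for DZNep against GSK126. No pairing by replicate number was seen, with correlations between -0.176 and 0.156 for the deviations of same-numbered libraries. These values alone cannot exclude a pairing, as libraries of different number were not compared. With the replicate block the same counts of 3, 7, 6, 8, 8, 8 and 7 lineage genes were called, in the order of comparisons just given, and over all genes 1937 for GSK126 against 1923 without it. The values that changed direction were uncalled, apart from that of Irf4 given last. For Cited1 with siEzh2 it was 0.008 with DESeq2 and 0.008 in a fit of those groups alone, and between -0.113 and 0.143 with 1 library left out. Leaving out 1 library gave -0.04 to 0.035 for Tfap2a with GSK126, -0.047 to 0.005 for Pax3 with DZNep, and -0.007 to 0.084 for Mitf in DZNep against GSK126. With DMSO as the control of siEzh2, Pax3 with siEzh2 was -0.123, Cited1 in the siEzh2 effect less the GSK126 effect was -0.24, and in the DZNep effect less the siEzh2 effect Pax3 was 0.103 and Irf4 0.161, not called (adjusted p = 0.167), where the value against scr was a called -0.821. Over all genes, 1135 were called for GSK126 in a fit of those groups alone, and leaving out GSK126 replicates 1, 2 or 3 gave 1251, 1201 and 1216 and leaving out DMSO replicate 3 gave 1249. With DMSO as control 2148 were called for siEzh2, against 3953 with scr. The cause of these shifts was not tested. At 3 libraries a group, changes of Irf4, at a few CPM, had the widest errors beside Cited1, and Ednrb was below what this depth can measure.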
